A study of Homo sapiens with 6 samples.

Results

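The subtelomeric H3K27ac peaks of CCRF-CEM cells, those within 1 Mb of an assembled end of chromosomes 1 to 22, were taken from 6 deposited peak lists. A peak was a member when it started below position 1000000, or when it ended less than 1 Mb before the largest peak end that any of the 6 lists had on that chromosome. By this rule 35753 of the 1364306 peaks on chromosomes 1 to 22 were members, out of 1440888 deposited peaks in all. Parental control held 4842 of them, parental 2 h held 5535 and parental 4 h held 5227. Knockout control held 6341, knockout 2 h held 5611 and knockout 4 h held 8197. They lay at 39 chromosome ends, 17 short-arm (p) and 22 long-arm (q) ends, since 5 short arms had no peak in their first Mb. Those 39 Mb were 1.39% of the length considered. The rule uses positions and no measured value of a peak.

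CCRF-CEM is an established human T lymphoblast leukemia line. Cells labelled wild-type, called parental here, were compared with cells that carry a knockout of SLFN11 and the name CB45 in the titles. Each line had a DMSO vehicle control (called control here) and samples taken 2 h and 4 h into treatment with camptothecin at 100 nM. Camptothecin traps topoisomerase 1 on DNA, and SLFN11 is a factor of the Schlafen family that sensitises cells to replication stress. The labels do not say how the knockout line was made or whether it is 1 clone. The SLFN11 locus was not examined. Each of the 6 groups had 1 library, so no difference between groups has a replicate check, and no p-value between groups was computed. All positions of peaks are on hg19, 1-based.

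H3K27ac, acetylation of lysine 27 on histone H3, marks active promoters and enhancers. The Mb next to a telomere is gene-rich and GC-rich on many arms, and its outermost stretch is a patchwork of segments that are copied, nearly letter for letter, between ends of different chromosomes. One such segment carries a member of the WASH family, an actin-regulating gene whose product works on endosomes, next to DDX11L, a set of transcribed pseudogenes derived from a helicase gene, and genes of the MIR1302, MIR6859 and FAM138 families. Most WASH copies are pseudogenes, and WASHC1 at 9p is the one named as coding. A read from such a segment can match several ends equally well. Copies at different ends are therefore not independent measurements, and which copy gave rise to a read cannot be told from a peak list.

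The sequences below show how alike the copies are, and they are the reason why peaks at several ends are described together. They are RefSeq promoter windows on GRCh38.p14, of 300 bases each, with the transcription start near their 3′ end. A genome of hg19 was not used here, so none of them was placed on a peak. The host genes of the MIR1302 hairpins at 1p and 9p share an unbroken run of 193 bases, printed in capitals. In the first window (chr1:29524-29823, plus strand) it takes positions 108 to 300. In the other window (chr9:29409-29708, plus strand) it takes positions 1 to 193.
MIR1302-2HG: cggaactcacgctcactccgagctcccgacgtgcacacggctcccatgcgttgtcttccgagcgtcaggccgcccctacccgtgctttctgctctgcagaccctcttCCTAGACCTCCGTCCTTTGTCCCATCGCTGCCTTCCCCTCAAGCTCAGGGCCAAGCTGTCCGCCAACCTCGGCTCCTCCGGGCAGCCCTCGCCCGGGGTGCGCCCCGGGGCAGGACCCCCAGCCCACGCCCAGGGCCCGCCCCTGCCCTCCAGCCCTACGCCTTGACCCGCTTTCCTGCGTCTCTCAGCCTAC
MIR1302-9HG: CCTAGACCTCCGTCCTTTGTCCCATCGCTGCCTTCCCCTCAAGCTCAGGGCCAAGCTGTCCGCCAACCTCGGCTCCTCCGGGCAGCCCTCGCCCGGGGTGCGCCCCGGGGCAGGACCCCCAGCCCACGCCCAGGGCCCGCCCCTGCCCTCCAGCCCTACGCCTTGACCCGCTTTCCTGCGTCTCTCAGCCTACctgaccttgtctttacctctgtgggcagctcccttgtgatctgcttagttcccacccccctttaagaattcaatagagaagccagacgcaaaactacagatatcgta
Read on the opposite strand, the WASHC1 window shares 298 bases in 1 run with the MIR1302-9HG window, so both genes start from the same stretch in opposite directions. Among 35116 promoter entries, 3 genes other than MIR1302-2HG itself shared a run of at least 40 bases with its window, namely MIR1302-9HG, WASHC1 and LOC105376912. The windows of MIR1302-2HG and MIR1302-9HG held 25 and 16 CpG dinucleotides, against a median of 14 over all entries. The letters GGGCGG, searched on both strands, occurred 2 times in the MIR1302-2HG window and 1 time in the MIR1302-9HG window, and 45.0% of all windows held them.

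FAM138, a family of non-coding RNA genes on the far side of the segment, is copied closely as well. The shared MIR1302 run ends at the edges of its windows, so its length does not show which family is copied more closely. The FAM138A window (chr1:36032-36331, minus strand) is letter for letter the same in 5 of the 6 family members, FAM138A, FAM138C, FAM138D, FAM138E and FAM138F. FAM138B (chr2:113577132-113577431, plus strand), which lies in the interior of chromosome 2, differs from it at 3 of 300 positions, printed in capitals. Counted from 1 at the 5′ end of the window, with the FAM138A base first, they are A20C, C48T and T135C.
FAM138A: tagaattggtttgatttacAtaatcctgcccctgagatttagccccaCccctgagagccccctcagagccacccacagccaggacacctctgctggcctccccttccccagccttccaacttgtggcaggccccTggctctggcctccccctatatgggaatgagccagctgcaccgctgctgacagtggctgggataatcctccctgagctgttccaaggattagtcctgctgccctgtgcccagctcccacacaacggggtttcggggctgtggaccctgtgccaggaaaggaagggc
FAM138B: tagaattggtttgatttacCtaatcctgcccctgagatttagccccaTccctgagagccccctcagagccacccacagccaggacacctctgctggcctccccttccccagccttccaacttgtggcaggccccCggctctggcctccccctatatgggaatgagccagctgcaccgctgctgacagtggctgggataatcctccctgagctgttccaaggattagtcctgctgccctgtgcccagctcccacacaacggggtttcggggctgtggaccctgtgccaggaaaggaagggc
These windows held 3 and 4 CpG dinucleotides and 0 matches to GGGCGG. The 4 genes of the MIR6859 family give 1 and the same mature 5p sequence, shown with its seed (bases 2 to 8) in capitals.
hsa-miR-6859-5p: gAGAGGAAcaugggcucaggaca

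Lists of different length were cut to the 30000 peaks of smallest p in each library, chromosome X included, and these are called matched peaks here. Fold stands for the authors' ratio of pileup to local background at a peak. Members and other peaks are compared in fold within a library. At single sites, folds of different libraries are set side by side without any scaling. Rank 1 is the peak with the smallest p. Of the members, 5709 were matched peaks (15.97%). The knockout 4 h library stood apart. Its list was the longest, with 410176 peaks against 174843 to 271785 in the other lists, and its members had a median width of 296 bp against 720 to 767 bp. At a −log10 q of at least 5 it kept 222 members, where the other libraries kept 516 to 597. Results are therefore given for the other 5 libraries, with knockout 4 h beside them.

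Subtelomeric DNA carried H3K27ac peaks more densely than the rest of the autosomes in all 6 libraries. Among matched peaks, subtelomeres held 25.5 per Mb in parental control, 24.2 in parental 2 h and 25.9 in parental 4 h. Knockout control held 24.5, knockout 2 h 25.5 and knockout 4 h 20.8. The rest of the autosomes held 10.1 per Mb in every library. The ratio of the densities was 2.52 in parental control (Wilson 95% interval 2.37 to 2.69), 2.40 in parental 2 h (2.25 to 2.56) and 2.57 in parental 4 h (2.41 to 2.73). It was 2.42 in knockout control (2.27 to 2.58), 2.53 in knockout 2 h (2.37 to 2.69) and 2.05 in knockout 4 h (1.92 to 2.20). The intervals cover counting error over peaks only. The intervals of the first 5 libraries overlapped each other, and that of knockout 4 h lay below them. In numbers of matched peaks, these were 993, 944 and 1010 in the parental libraries and 955, 996 and 811 in the knockout libraries, in the order control, 2 h and 4 h.

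Single ends differed far more from each other than libraries did. The long-arm end of chromosome 14 was the densest. It held 115 matched peaks in the parental control library, 103 in parental 2 h and 108 in parental 4 h. Knockout control had 106, knockout 2 h had 114 and knockout 4 h had 74. It alone gave 10.7% to 11.6% of the matched members in the 5 libraries other than knockout 4 h. In the order of genes in RefSeq, that end is the immunoglobulin heavy chain locus, with the variable segments outermost. In B cells this locus is rearranged to make antibodies. Without that end, the density ratio was 1.92 in knockout 4 h and 2.19 to 2.35 in the other libraries.

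The ends of 19q, 11p, 20q and 16p came next, with means over the 5 libraries of 46.2, 44.0, 41.4 and 37.0 matched peaks. At 19q the 6 libraries held between 43 and 51, a range that did not overlap that of 14q. The sparsest end was 3p, with 1 to 3 matched peaks in any library. It was followed by 10p with a mean of 7.6, 1q with 10.2, 6p with 10.6 and 4q with 10.8. Of the 39 ends, 37 lay above the density of the rest of the autosomes, and 36 lay above the interior of their own chromosome, by a median of 2.03-fold. The 3 ends below their own interior were 1q, 10p and 3p, where 3p had 0.217 times the density of the rest of chromosome 3. Chromosome 11 showed a wide contrast between its arms, with 44.0 matched peaks at 11p and 12 at 11q. The long-arm ends had a mean of 28.9 matched peaks, or 25.1 without 14q, and the short-arm ends had 20.2.

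**Figure D1:**
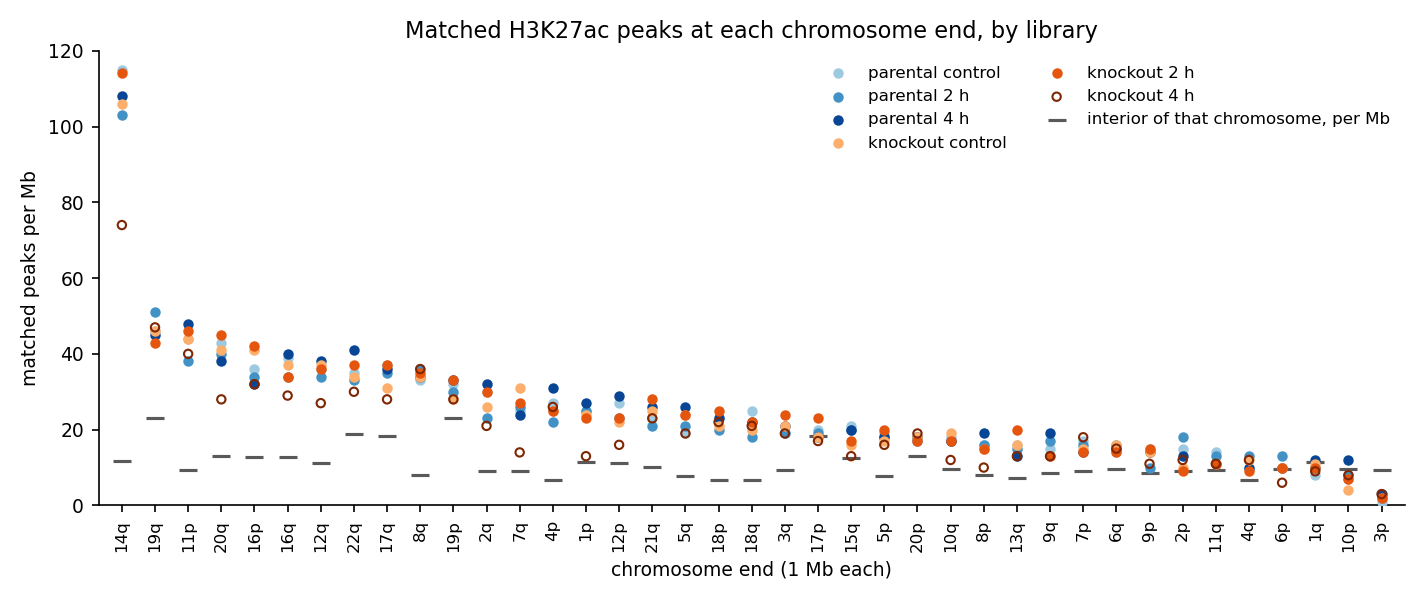
Matched peaks in the outermost Mb of each of the 39 chromosome ends (y axis, peaks per Mb; x axis, ends in order of their mean over the 5 libraries other than knockout 4 h). Points are single libraries and dashes are the mean density of the interior of that chromosome; 14q stands at 74 to 115, and 1q, 10p and 3p lie below their dashes.

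The excess did not end at 1 Mb, and it did not peak at the very end. In the outermost 100 kb the median library had 20.9 matched peaks per Mb, with a range of 15.9 to 23.8 over the 6 libraries. Between 600 and 700 kb from the end the median was 31.3, and between 800 and 900 kb it was 21.03. The last bin inside the boundary (900 to 1000 kb) and the first bin outside it (1000 to 1100 kb) both had a median of 21.8. The Mb beyond the boundary as a whole had 20.5, 19.97 and 21.1 matched peaks per Mb in the parental libraries, and 20.9, 21.6 and 18.0 in the knockout libraries, in the order control, 2 h and 4 h. The boundary of 1 Mb therefore does not separate 2 levels of density in these lists. At 1900 to 2000 kb the median had come down to 14.9 per Mb. The outer 500 kb of the zone held 0.935 to 1.04 times as many matched peaks as the inner 500 kb.

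Short and long arms differed in the outermost part. In the first 100 kb the median density was 15 per Mb at p ends and 25.9 at q ends, and from 100 to 200 kb it was 12.6 and 31.1. From 600 to 700 kb the medians were 28.2 and 33.6. Over the 6 libraries the ranges of the arms did not overlap in the first 200 kb (12.4 to 16.5 against 18.6 to 29.5, then 10.6 to 15.9 against 26.8 to 32.7). A short arm was counted from position 1, which can lie in an unsequenced stretch, while the end of a long arm was taken here as its last peak. Of the 17 short arms, 9 had a first deposited peak at or below 20 kb and 8 had it above 50 kb. The lowest, at 17p, started at position 3284. The part of this offset in the difference between arms was not tested.

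**Figure D2:**
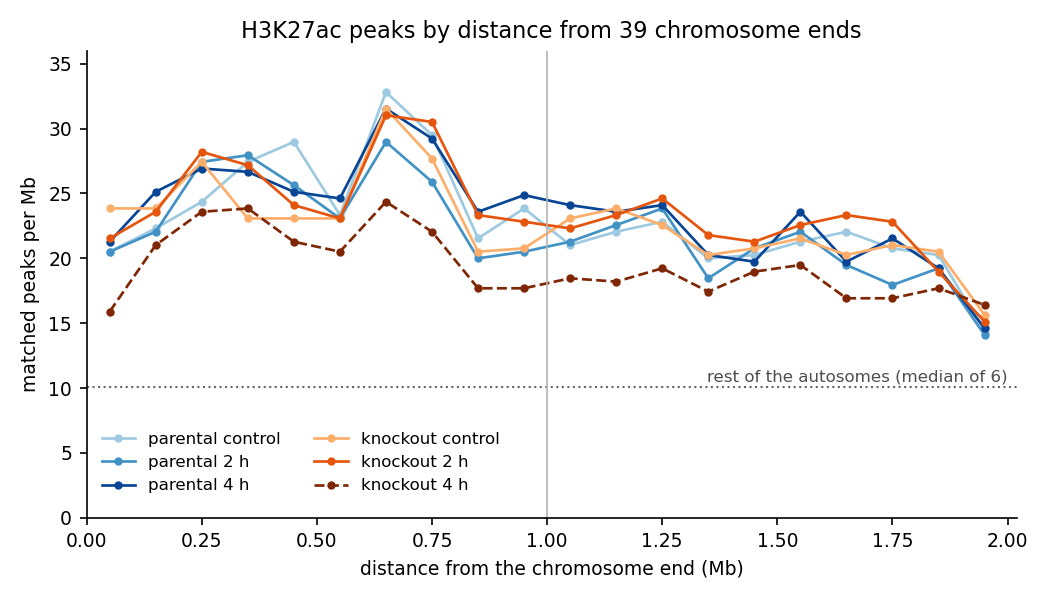
Matched peaks per Mb (y axis) in 100 kb bins of distance from the 39 ends (x axis, Mb), 1 line per library; the dotted line is the rest of the autosomes and the vertical line is the 1 Mb boundary. All bins out to 2 Mb lie above the dotted line at 10.1, and values on both sides of the boundary are alike.

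Among the 5000, 15000 and 30000 strongest peaks of each library, subtelomeric peaks were broader than other peaks, and among the 5000 and the 15000 strongest they had a lower median fold. The distributions of p within these lists were not matched. Among the 15000 strongest peaks, their median fold was 4.42 to 4.58 in the 5 libraries, against 5.05 to 5.17 in the rest of the autosomes. Their median width was 1435.5 to 1571 bp against 1251 to 1392 bp. Among all matched peaks, the median width of members was 1402 bp in parental control, 1329.5 bp in parental 2 h and 1361.5 bp in parental 4 h, where the rest of the autosomes had 1100, 933 and 1016 bp. It was 1428 bp in knockout control, 1442.5 bp in knockout 2 h and 1144 bp in knockout 4 h, where the rest had 1100, 1140 and 703 bp. Members were thus the wider peaks in every library at this list length. Among the 1000 strongest peaks they were the narrower ones in 3 libraries, with 1275 against 1287 bp in parental control, 1199 against 1242.5 bp in parental 4 h and 1276.5 against 1283.5 bp in knockout control. Among all matched peaks of the 5 libraries, members and the rest lay closer in fold than among the 15000 strongest. The medians over all matched peaks were 3.63 to 3.87 for members and 3.76 to 3.90 for the rest. In knockout 4 h the order was the opposite, with 3.62 for members and 3.44 for the rest. Over all deposited peaks it was also the opposite in knockout control (2.08 against 2.03) and knockout 2 h (2.08 against 2.04). Together, density and width gave a covered length per Mb 2.95 to 3.18 times that of the rest in the 5 libraries, and 2.73 times in knockout 4 h.

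**Figure D3:**
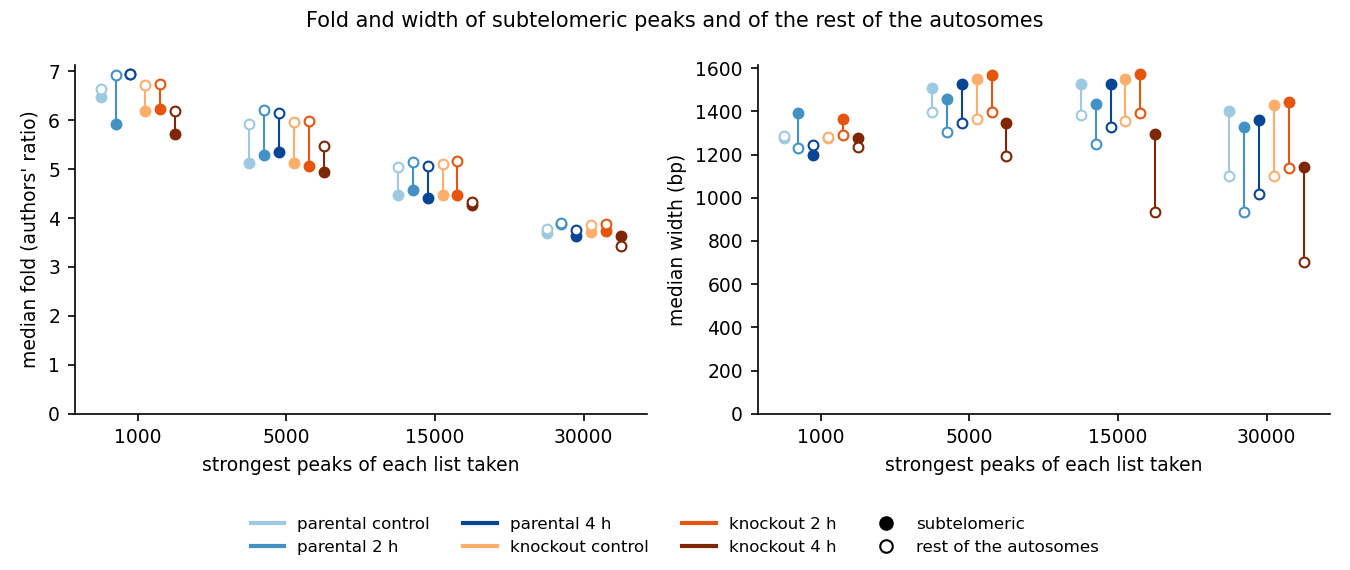
Median fold (left, the authors' ratio) and median width (right, bp) of subtelomeric peaks (filled) and of the rest of the autosomes (open), for the 1000, 5000, 15000 and 30000 strongest peaks of each library. At 5000 and 15000 the filled points lie below the open ones in fold and above them in width in all 6 libraries, while at 1000 they lie below in width in 3 libraries.

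By rank, the share of members in the 5 libraries was largest among the 100 strongest peaks, where it rests on few peaks. It was lower among the 1000 strongest than from there to rank 15000. The smallest share was at a different depth in different libraries. They were 5 to 6 of the 100 strongest peaks in each of the 5 libraries, and 31 to 37 of the 1000 strongest. Past rank 1000 and up to rank 5000 they made up 4.00% to 4.15%, and from there to rank 15000 they made up 3.86% to 3.99%. Past rank 15000 and up to 30000 the share was 2.32% to 2.77%, and from there to rank 100000 it was 2.47% to 2.60%. Past rank 100000, where the lists differ in length, the share was higher again in the parental libraries, with 2.85% in parental control, 3.59% in parental 2 h and 3.07% in parental 4 h. Knockout control had 2.18%, with 2.42% in knockout 2 h and 1.89% in knockout 4 h. Knockout 4 h had more members among its 1000 strongest peaks (45) and fewer between ranks 5000 and 15000 (2.75%) than the other 5 libraries.

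Members were found again in all the other libraries but knockout 4 h more often than other peaks, and less often in knockout 4 h past rank 15000. Of the parental control members, 70.2% overlapped a matched peak in all the other 4 of the 5 libraries (Wilson 95% interval 67.3 to 73.0), against 60.3% of the rest of the autosomes (59.7 to 60.9). At ranks 1 to 15000 the shares were close, 97.2% (95.5 to 98.2) and 96.7% (96.4 to 97.0). Past rank 15000 they were 29.5% (25.3 to 34.2) and 24.3% (23.6 to 25.02). In knockout 4 h alone, 22.7% (18.9 to 27.1) of the parental control members past rank 15000 were found again, against 30.1% (29.4 to 30.9) of the rest. Over the 5 libraries these shares ran from 18.5% to 29.3% for members and from 29.2% to 36.9% for the rest. An overlap of at least 1 bp counted as found again, and members were wider and denser than other peaks. Members also lay more often at strong ranks. In parental control, 597 of the 993 members had ranks 1 to 15000, with 14445 of all 28841 matched autosomal peaks. The part of rank in the shares over all ranks, and of width and density, was not tested.

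The strongest subtelomeric peaks were those of the copied WASH segment at 12p, 15q, 1p and 19p. The 9p copy was weaker by p, and in knockout 2 h, at rank 261, it stood behind a 14q peak at rank 100. In RefSeq's gene order, 6 of the 39 ends carry a WASH gene among their outermost genes, namely WASH7P at 1p, WASHC1 at 9p, WASH8P at 12p, WASH3P at 15q, WASH4P at 16p and WASH5P at 19p. At 1p, 9p, 12p, 15q and 16p a DDX11L pseudogene lies outside it on GRCh38.p14. At 5 of these 6 ends, all but 16p, the strongest deposited peak within 150 kb of the end was among the 261 strongest peaks of the whole list in every library. How the surrounding peaks were picked (the strongest one 6 to 10 kb away on either side, and 17 to 21 kb away on 1 side) was set after the values had been seen.

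Near 29 kb on chromosome 1 a peak stood at 28653 to 29867 in parental control, with a fold of 7.08 and rank 10. Its fold was 7.52 at 2 h and 7.26 at 4 h in parental cells, at ranks 6 and 10. In the knockout it was 6.74 in control (rank 19), 6.21 at 2 h (rank 53) and 7.34 at 4 h (rank 5). This is the peak of the WASH7P end, and it was between 1141 and 1364 bp wide. A weaker and wider peak lay on its telomeric side, at 20718 to 22235 in parental control, with a fold of 4.23 and rank 4655. On the other side, a faint peak at 35956 to 38322 had a fold of 3.02 and rank 27672. Near the very end, at 11060 to 11414, a further one had a fold of 3.65 and rank 16933.

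Near 74 kb on chromosome 12 the same arrangement appeared in mirror image. The RefSeq order of GRCh38.p14 has the same direction at 1p and 12p, so gene order and peak order differ at 12p. Whether hg19 has that segment turned around there was not tested. The strong peak was at 73845 to 75042 in parental control, with a fold of 7.21 and rank 3. Its fold was 7.40 in parental 2 h and in parental 4 h, at rank 2 in both. In the knockout it was 6.996 in control (rank 5), 6.86 at 2 h (rank 9) and 7.40 at 4 h (rank 2). No subtelomeric peak was stronger than this one in any library. Its second peak lay on the centromeric side, at 81615 to 82863 in parental control, with a fold of 4.61 and rank 5017, and the faint opposite peak had a fold of 1.94 to 2.69 over the libraries.

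The other 3 ends repeated the pattern. At 15q the main peak was at 102501283 to 102502517 in parental control (fold 7.001, rank 6), and its rank over the 6 libraries was 3 to 17. At 19p it was at 70236 to 71510 (fold 6.77, rank 21), with ranks of 12 to 65. At 9p, the end of the coding gene WASHC1, it was at 28733 to 29727 (fold 7.93, rank 81), with ranks of 28 to 261. The fold at 9p was the highest of the 5 ends in each library, while its p put it last of them. Over the 5 ends and 6 libraries the main peak had a fold of 6.21 to 8.62 and a width of 862 to 1371 bp. The second peak lay 7.02 to 7.85 kb from it, with a fold of 3.32 to 4.61. The opposite peak, found in 29 of the 30 cases, lay 6.57 to 8.93 kb away on the other side, with a fold of 1.94 to 3.50.

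The end of 16p did not show it around its strongest peak. Its strongest deposited peak within 150 kb lay at 126906 to 128659 in parental control, with a fold of 4.38 and rank 5330. In the other 5 libraries it was a different peak, at 102640 to 104480 in knockout control, with a fold of 4.47 to 5.13 and ranks of 3384 to 5455 over those libraries. Conversely, the pattern occurred away from any end. On chromosome 2, peaks at 114341135 to 114342408 in parental control (fold 6.83, rank 7) had ranks of 5 to 8 over the 6 libraries, with a second peak 7.45 to 7.87 kb away and a far peak at 19.7 to 19.8 kb. In RefSeq's order, WASH2P, DDX11L2 and FAM138B lie close together in the interior of chromosome 2, near the place where an ancestral pair of chromosomes is known to have fused end to end. That site was added to the description after its values were seen.

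**Figure D4:**
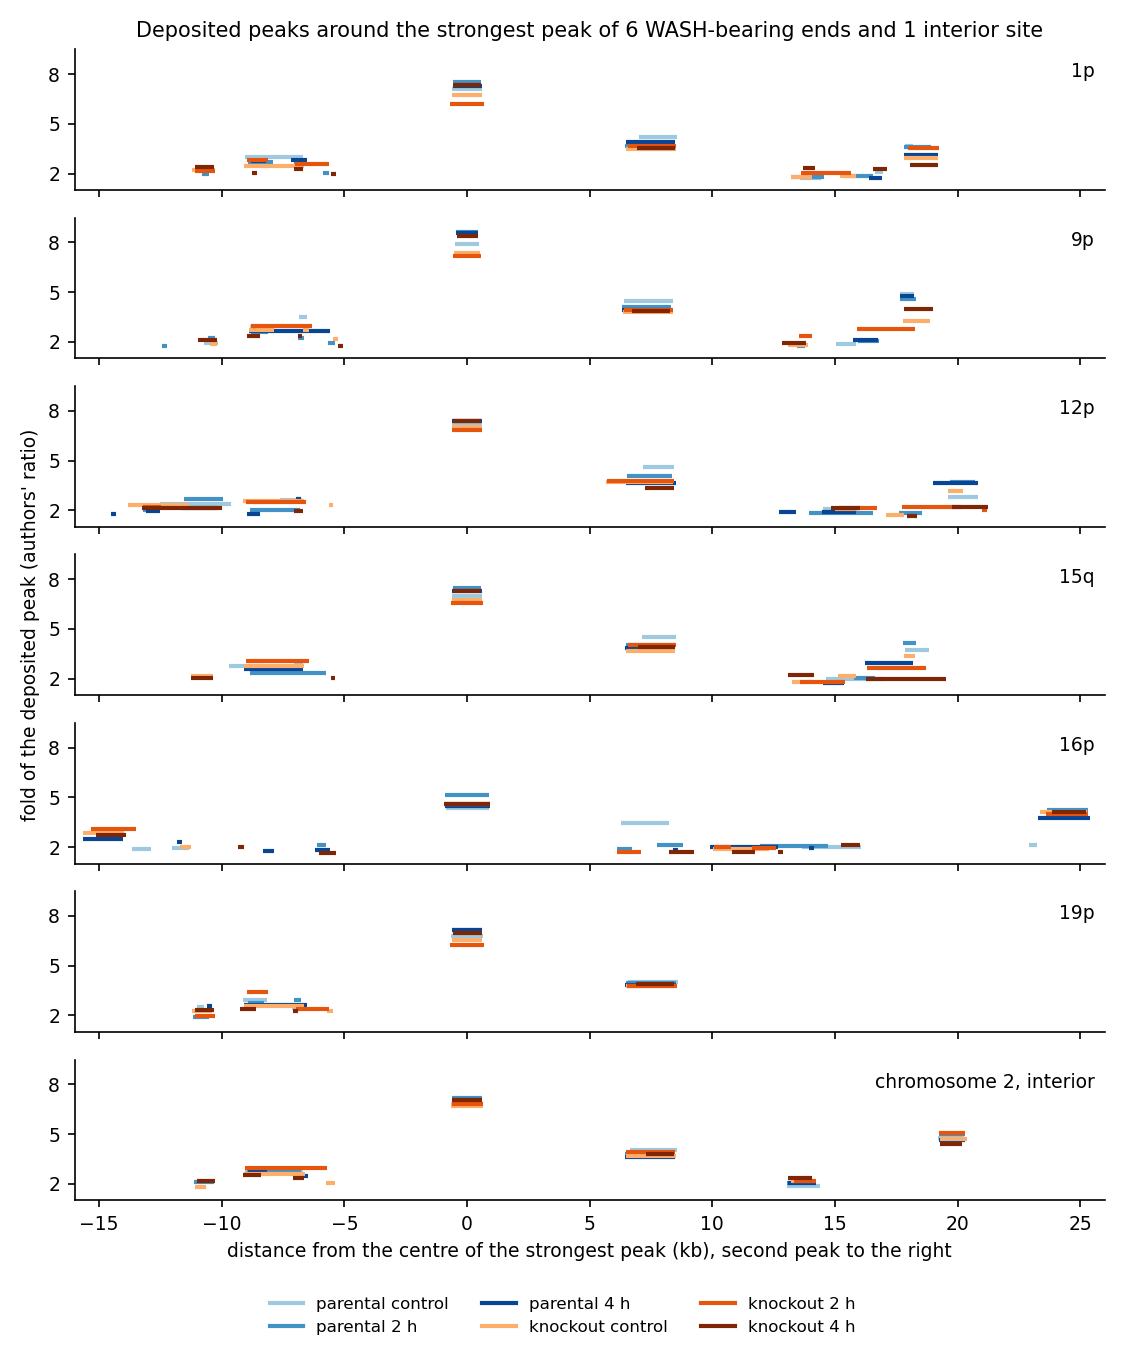
Deposited peaks around the strongest peak of 6 WASH-bearing ends and of the chromosome 2 site, as horizontal bars of the peak's width (x axis, kb from the centre of the strongest peak, with the second peak to the right) at the height of its fold (y axis), coloured by library. Apart from 16p, each panel shows a strong central peak with a fold between 6.21 and 8.62 and a second peak at 7.02 to 7.87 kb.

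To compare libraries on equal terms, overlapping peaks among the top 15000 of every library but knockout 4 h were joined into regions. A region's rank in a library follows from its best deposited peak there by p. This gave 18835 regions, of which 707 were subtelomeric (3.75%), with at least 1 at every end and 81 at 14q. Subtelomeric regions were wider, with a median of 1716 bp against 1468 bp over all regions. They ranked somewhat higher, with a median mean rank of 8811 against 9603.

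The main and second peaks of the WASH copies moved in different ways between libraries. The main regions at the 5 ends ranked lower in knockout control and knockout 2 h than in all 3 parental libraries. At 1p these ranks were 19 and 53 against 6 to 10, and at 9p 176 and 261 against 43 to 81. The ranks in knockout 4 h were 5 and 28 at those ends, so this library did not share the shift, and the chromosome 2 region did not show it either (7 and 5 against 6 to 7). The second regions instead stood highest in parental control at all 5 ends and on chromosome 2. At 15q the rank was 3854 in parental control, 6845 and 7694 in the treated parental libraries, and 6340, 6216 and 7493 in knockout control, 2 h and 4 h. Over the 6 sites the ranks of parental control ran from 3231 to 6199, with a median of 4835, and the medians of the other libraries lay between 7481.5 and 8093. Since the copies can share reads, these are not 6 separate observations, and the rank of parental control has no replicate.

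Beyond the WASH copies, the 10 strongest subtelomeric regions by mean rank over the 5 libraries held 5 others. The region at 20p from 523662 to 524669 had ranks of 71 to 126 in the 5 libraries and 423 in knockout 4 h, with a fold of 8.75 in parental control. A second one at 20p, from 277795 to 279537, had ranks of 220 to 512 over the 6 libraries. At 11p, a region from 355106 to 356541 had ranks of 155 to 346. Every library placed these 3 among its 512 strongest regions.

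At 14q, 2 regions belonged to that group. The one from 107251947 to 107253848 had ranks of 104, 132 and 147 in the parental libraries and of 93, 100 and 75 in the knockout libraries. Its fold was low for such a rank, 4.59 in parental control. The other, from 107083105 to 107084010, had a fold of 9.04 in parental control and ranks of 129, 139 and 653 in the parental and 322, 568 and 282 in the knockout libraries. The parental 4 h library placed it lowest. Peaks at 14q were narrower than those at other ends, with medians of 1002 to 1177 bp against 1355 to 1482.5 bp in the 5 libraries, and a larger part of them was strong. In parental control 27.8% of the 14q peaks were among the 5000 strongest, against 18.9% at the other ends.

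The outermost matched peaks reached the last base covered at some ends. For long arms, the distance was measured from the last deposited peak of any library, so small distances are in part set by the rule. At 21q the outermost matched peak lay 0 to 0.5 kb from that point in all 6 libraries, with a fold of 3.25 to 3.94. It was followed by 14q (0 to 2.86 kb, fold 2.28 to 4.61), 15q (0.708 to 11.1 kb, fold 2.63 to 4.13) and 4q (0.114 to 11.1 kb, fold 2.52 to 5.90). At 15q this was the far peak of the WASH segment in 5 libraries and its second peak in knockout 4 h. The 9p end was the closest short arm by mean distance, with its outermost matched peak 10.2 to 11.0 kb from position 1.

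After camptothecin, the share of matched peaks that lay in subtelomeres differed from control by an interval that included 0 in 3 of the 4 comparisons. In parental cells the share was 3.44% in control, 3.28% after 2 h and 3.50% after 4 h. The differences from control were −0.16 percentage points at 2 h (95% interval −0.46 to 0.13) and 0.06 at 4 h (−0.24 to 0.36). In the knockout the share was 3.31% in control, 3.45% after 2 h and 2.82% after 4 h. The differences were 0.14 points at 2 h (−0.15 to 0.44) and −0.49 at 4 h (−0.77 to −0.21). The last one rests on the knockout 4 h library, which stood apart in list length and peak width, and it turned to 0.0993 points among peaks with a −log10 q of 5 or more. With all deposited peaks, the parental 2 h difference turned to 0.310 points, from 2.91% (Wilson 95% interval 2.84 to 2.997) in control to 3.22% (3.14 to 3.31). The knockout 2 h difference was then 0.202 points, from 2.46% (2.40 to 2.52) to 2.66% (2.59 to 2.73), so neither pair of intervals overlapped. These full lists were not matched in length. Knockout control had 257788 autosomal peaks and knockout 2 h had 210771, while parental control had 166117 and parental 2 h had 171654. The longest list, knockout 4 h with 385578 autosomal peaks, had the smallest share, 2.13%. The part of list length in these differences was not tested. Among matched peaks, knockout control differed from parental control by −0.13 points (−0.43 to 0.16). These intervals cover counting error over peaks and not the spread between cultures, which 1 library per group cannot show.

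A region was counted as higher or lower in a comparison when its rank differed by more than 3000 places. In parental 2 h against parental control, 46 of the 707 subtelomeric regions were higher (6.51%, with 8.79% over all 18835 regions) and 48 were lower (6.79%, with 8.10% over all). In parental 4 h against parental control, 43 were higher (6.08%, with 7.13% over all) and 58 were lower (8.20%, with 7.45% over all). In knockout 2 h against knockout control, 30 were higher (4.24%, with 4.50% over all) and 27 were lower (3.82%, with 4.68% over all). The subtelomeric shares thus lay near or below the shares over all regions, apart from the lower regions at parental 4 h. In knockout 4 h against knockout control, 95 were higher (13.4%, with 15.2% over all) and 94 were lower (13.3%, with 16.1% over all). With regions ranked by fold in place of p, 261 were higher at knockout 4 h (36.9%, with 26.8% over all), which puts the subtelomeric share above that of all regions, and 56 were lower at parental 4 h (7.92%, with 9.87% over all), which puts it below. Knockout control against parental control gave 42 higher (5.94%, with 7.63% over all) and 59 lower (8.35%, with 7.35% over all).

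Lower regions were more frequent at 14q than at the other ends together in all 4 treated libraries. At parental 4 h, 20 of the 81 regions at 14q were lower (24.7%, with 7.45% over all 18835 regions). Another 3 were higher (3.70%, with 7.13% over all). At the other ends 38 of 626 were lower (6.07%) and 40 were higher (6.39%). At parental 2 h, 12 of the 81 were lower (14.8%, with 5.75% at the other ends and 8.10% over all). Another 3 were higher (3.70%, with 8.79% over all). At knockout 2 h, 6 were lower (7.41%, with 3.35% at the other ends and 4.68% over all). Another 4 were higher (4.94%, with 4.50% over all). At knockout 4 h, 19 were lower (23.5%, with 11.98% at the other ends and 16.1% over all). Another 10 were higher (12.3%, with 15.2% over all). The median rank of the 14q regions was 6978 in parental control, 8151 in parental 2 h and 9025 in parental 4 h. It was 7630 in knockout control, 8099 in knockout 2 h and 7177 in knockout 4 h. Against the control of its genotype, the median change of a 14q region was −1116 places at parental 2 h, −1302 at parental 4 h, −392 at knockout 2 h and −1230 at knockout 4 h, where a negative value is a lower place. Both parental values share 1 control library, and so do both knockout values. The difference between genotypes was not tested.

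**Figure D5:**
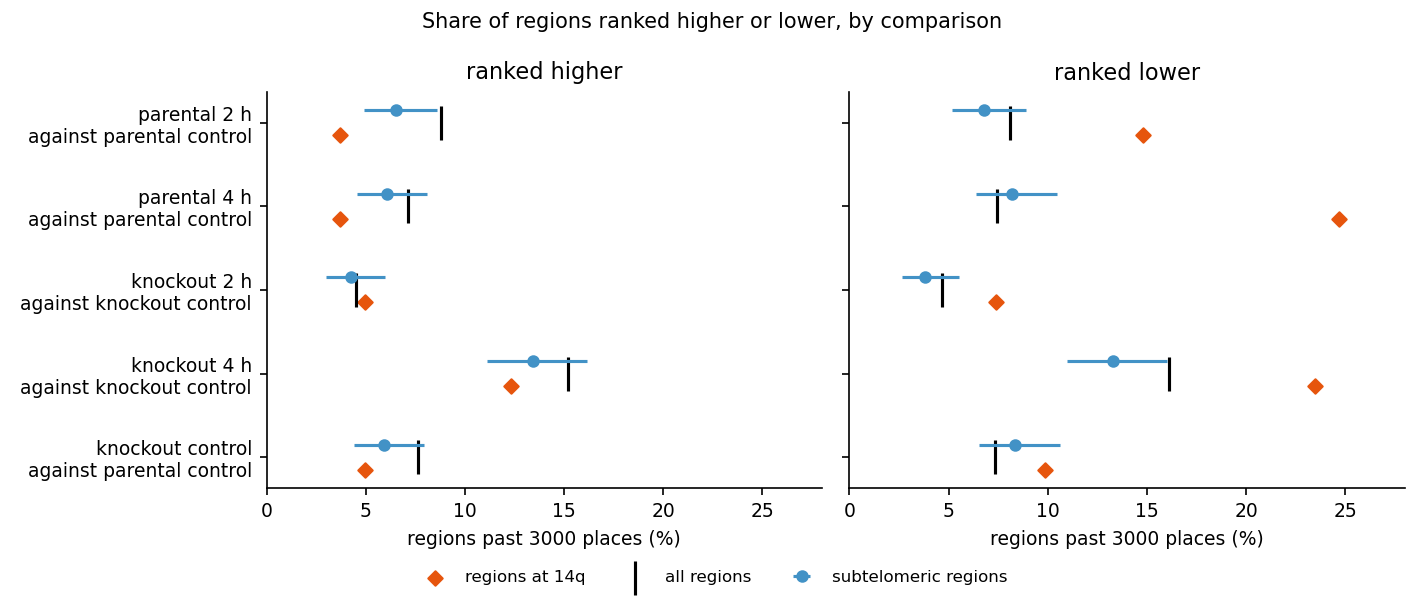
Share of regions (x axis, %) ranked higher (left) or lower (right) by more than 3000 places in each of the 5 comparisons (y axis). Circles are the 707 subtelomeric regions with Wilson 95% intervals (counting error over regions only), diamonds the 81 regions at 14q and bars all 18835 regions; the diamonds for lower regions reach 24.7% at parental 4 h, while most circles lie near or left of the bars.

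Of the 6 widest falls in parental cells after camptothecin, 4 were at 14q, where the region from 106685463 was counted at both times. A wide fall needs a high enough rank in the single parental control library, so the falls follow in part from that choice. The widest rises started from ranks of 16954 or more in control, and such a region entered the set only through another library, so its low starting rank follows in part from how regions were made. At 2 h the 3 widest rises were at 18p from 111724 to 112610 (rank 18437 in control, 11322 at 2 h), at 4q from 190731571 to 190732207 (18798.5 to 12061) and at 15q from 102255279 to 102255760 (18323 to 11647). The 4q region held no deposited peak in parental control. The widest falls were at 14q from 106685463 to 106685775 (9984 to 18792.5), at 19q from 58203662 to 58204030 (10854 to 18548) and again at 14q, from 106748798 to 106749288 (11931 to 18284). At 4 h the widest rises were at 8q from 146104734 to 146105443 (18422 to 9733), at 19q from 58912194 to 58913881 (16954 to 9876) and at 2p from 671324 to 671841 (18798.5 to 13246). The widest falls at 4 h were at 14q from 106621717 to 106623502 (1333 to 9936), again at 14q from 106685463 (9984 to 17885), and at 1p from 566155 to 566808 (8192 to 15179).

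Of these, the 14q region from 106621717 to 106623502 had the highest rank in parental control. Its fold was 12.99 in parental control, 10.7 in parental 2 h and 5.47 in parental 4 h. In the knockout the fold was 8.21 in control, 11.4 at 2 h and 9.67 at 4 h, and the ranks were 4800, 3242 and 422. Its rank thus went down in the treated parental and up in the treated knockout libraries. The 1p region from 566155 to 566808 had a fold of 7.86 in parental control and 4.20 at 4 h, and 6.33 in knockout control and 2.34 at knockout 2 h. It was also the widest fall of knockout 2 h against its control (10713 to 18551).

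In knockout 2 h against knockout control the widest rises were at 20q from 62669954 to 62670968 (17365 to 10635), at 17q from 80984433 to 80985046 (17153 to 11428) and at 19q from 58360831 to 58362204 (12143 to 6690). After 1p, the widest falls were at 4q from 190802274 to 190802682 (12331 to 17726) and at 17q from 80544048 to 80544516 (12915 to 18038). In knockout 4 h, the library that stood apart, the widest rises were at 15q from 102255279 (16558 to 3780), at 4q from 190253793 to 190254271 (18654 to 8107) and at 11q from 134897629 to 134898064 (17198 to 6742). Its widest falls were at 9p from 272426 to 274277 (7517 to 17508), at 12q from 133443332 to 133445133 (3308 to 12845) and at 14q from 106962931 to 106963971 (7630 to 16425). The 15q region had also risen at parental 2 h.

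Between the untreated genotypes the subtelomeric regions were shifted slightly down in the knockout. The median subtelomeric region stood 180 places lower in knockout control than in parental control (a rank rise of −180), against −24 over all regions, and 41.7% of subtelomeric regions stood higher, against 48.9% of all. Among the 29 ends with at least 10 regions, 22 had a median below 0 and 7 above it. The lowest was 1p, with a median of −1877 over 18 regions, and 19q had −756.5 over 42. The widest single rises were at 3q from 197390340 to 197392739 (16106 to 7882), at 11p from 859633 to 861693 (17246 to 10085) and at 4q from 190802274 (18798.5 to 12331). The widest falls were at 19q, from 58661612 to 58662378 (7199 to 16093) and from 58570347 to 58571889 (11143 to 18057), and a region at 17p from 436554 to 438396 (9749 to 18144).

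Grouping by genotype, 10 subtelomeric regions ranked higher in both knockout control and knockout 2 h than in all 3 parental libraries by more than 3000 places (1.41%, with 1.64% over all regions). In the opposite direction, 7 ranked higher in the parental libraries (0.990%, with 0.669% over all). None of the 17 was at 14q. The region at 11p from 859633 to 861693 had ranks of 17246, 18440 and 17347 in the parental libraries and of 10085 and 10683 in knockout control and 2 h. The other wide ones on that side were at 7q from 158841438 to 158843257, 21q from 47357041 to 47359183, 13q from 114438396 to 114440603 and 12p from 836353 to 836963, with gaps of 3816.5 to 4083 places.

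On the parental side, the 19q region from 58570347 to 58571889 had ranks of 11143, 8464 and 9747 in the parental libraries and of 18057 and 18768 in knockout control and 2 h. The 19q region from 58661612 to 58662378 had 7199, 7450 and 6325 against 16093 and 12627. At 9p the region from 10907 to 11570, the far peak of the WASHC1 end, had 10622, 10005 and 10707 against 16533 and 17315, while knockout 4 h gave 9609. The remaining wide ones were at 3q from 197185277 to 197187187 and at 11p from 585127 to 585756.

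By 10 kb windows, in which a window counts as gained when matched peaks cover it in the first library only and as lost in the opposite case, the subtelomeric shares were below those of the autosomes in all but 1 case. In parental 2 h against control, 166 of 1126 windows marked in either library were gained (14.7%, with 20.9% over the autosomes) and 185 were lost (16.4%, with 20.3%). At parental 4 h, 167 were gained (14.8%, with 19.5%) and 146 were lost (12.95%, with 19.0%). At knockout 2 h, 132 were gained (12.4%, with 16.4%) and 109 were lost (10.3%, with 17.2%). At knockout 4 h, 184 were gained (16.5%, with 27.5%), but 326 were lost (29.3%, with 25.9%), and this was the one share above that of the autosomes. Between the controls, 141 were gained in the knockout (12.8%, with 18.3%) and 171 were lost (15.5%, with 18.6%). Windows hold more peaks per window where peaks are dense, and the part of density in these lower shares was not tested.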

How the data were processed

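H3K27ac ChIP-seq of CCRF-CEM cells was taken as deposited, as 1 list of broad peaks per library, so peaks were called per library. The submitters' processing notes name MACS2 2.1.2, BWA 0.7.17, then Trimmomatic 0.39 and Trim Galore 0.6.2, and also Picard 2.9.2 and SAMtools 1.8, with hg19. Settings, any filter on reads with several matches, and the control of the peak calls: not given in the sources used here. The authors' deposited values per peak are the fold (a ratio of pileup over local background), the −log10 p and the −log10 q. The deposited score was not used beyond a check of its column. The labels' treatment field names 2 h and 4 h, and the extraction text names 4 h alone.

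Equal-length lists of the 30000 strongest peaks, merged regions (overlap of at least 1 bp), ranks over regions and 10 kb windows were computed with Python 3.11.15, pandas 2.3.3 and NumPy 2.4.6, and tested on simulated lists. Intervals of shares are Wilson 95% intervals, and those of differences use the normal approximation. Read depth is not in the lists. With 1 library per group there is no test between groups. The members, lists, regions and thresholds were chosen with earlier results of these data known. Named sites are chromosome 1 near 29 kb and chromosome 12 near 74 kb, the 10 strongest regions, the 3 widest rises and 3 widest falls per comparison (5 per direction for genotype), the 5 densest and 5 sparsest ends, and the outermost matched peaks of 5 ends. The chromosome 2 site was chosen after its values were seen. Alternatives were other list lengths, zones, rank gaps, strength by fold and window coverage. RefSeq names and promoters on GRCh38.p14 give gene order and sequence only. No gene was placed on a peak.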

Additional observations from a re-analysis of the deposited data

Results flagged for a closer look

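Of 62 counts and regions looked at, 9 were picked out because both treated parental libraries moved one way from their control and both treated knockout libraries moved the other way. In none was the difference tested, since each group has 1 library, and both treated libraries of a genotype share 1 control. The flagged regions all came from the named sites, most of which were chosen for wide rises or falls in these same lists. Wide values follow in part from that choice. The value given is the mean parental change minus the mean knockout change after camptothecin, in places of rank for regions. For a flagged region, a positive value means weaker ranks in treated parental and stronger ranks in treated knockout libraries. Either genotype can give most of such a value.

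At the end of 1q the value was 4.5 matched peaks, from 8, 10 and 12 in the parental libraries and 11, 10 and 9 in the knockout libraries, in the order control, 2 h and 4 h. The 14q region from 106621717 to 106623502 had the widest difference, 8206.5 places (1333, 3207 and 9936 against 4800, 3242 and 422). Positive values were also found at 13q from 114438396 to 114440603, with 4457.5 (16329, 17982 and 18241 against 12496, 10099 and 9543), and at 20q from 62669954 to 62670968, with 3923.5 (16717, 17491 and 16849 against 17365, 10635 and 17154).

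The other regions moved to stronger ranks in parental cells, apart from the 4q region, which had no peak at parental 4 h. The 8q region from 146104734 to 146105443 had −6367.5 (18422, 15890 and 9733 against 16374, 16399 and 17863). The 17q region from 80544048 to 80544516 had −5871.5 (18088, 17133 and 16304 against 12915, 18038 and 16796). The 3q region from 197390340 to 197392739 had −5416 (16106, 14217 and 11207 against 7882, 9485 and 10323). The 4q region from 190802274 to 190802682 had −5014.5, and it held no deposited peak in parental control and parental 4 h. Its ranks there, 18798.5 and 18790, are ties of empty regions. It was therefore picked out at parental 4 h through ties only, and that step shows no change in the mark. The 21q region from 47357041 to 47359183 had −938 (13275, 13161 and 12166 against 7638, 8258 and 7671).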

How the results depend on the processing

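No paired analysis was possible because each group has 1 library. Read depth is unknown, and 1 library per group leaves the spread between cultures unmeasured. The counts below depend on thresholds, and the cause of the changes was not tested. The median density ratio of the 6 libraries, 2.47, was 3.03 with 15000 peaks, 2.03 with all deposited peaks, 3.08 at a −log10 q of at least 5, 2.30 with a zone of 2 Mb, 2.12 per 10 kb window with a deposited peak, 3.02 by covered length, 1.98 against the rest of the same chromosome and 2.25 without 14q. The last of these, and leaving out knockout 4 h, were added after seeing the data. The share change of knockout 4 h, −0.49 points, reversed to 0.0993 under that same q limit, and was −0.207 with a zone of 500 kb and −0.885 with 2 Mb. With all deposited peaks, where the lists were not matched in length, parental 2 h gave 0.310 and knockout control against parental control −0.455.

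With a gap of 2000 places, parental 2 h had 91 regions higher (12.9%, with 15.1% over all) and 104 lower (14.7%, with 14.8%). Parental 4 h had 101 higher (14.3%, with 14.06%) and 105 lower (14.9%, with 14.01%). Knockout 2 h had 74 higher (10.5%, with 9.997%) and 58 lower (8.20%, with 9.93%). Between the controls, 73 were higher (10.3%, with 13.7%) and 111 lower (15.7%, with 13.5%). Knockout 4 h had 154 lower (21.8%, with 25.4%). With 5000 places, parental 2 h had 10 higher (1.41%, with 2.17% over all) and 11 lower (1.56%, with 2.12%). Parental 4 h had 6 higher (0.849%, with 1.33%) and 6 lower (0.849%, with 1.71%). Knockout 2 h had 4 higher (0.566%, with 0.690%) and 3 lower (0.424%, with 0.791%). Between the controls, 8 were higher (1.13%, with 1.92%) and 15 lower (2.12%, with 1.92%). Knockout 4 h had 37 higher (5.23%, with 8.77%) and 28 lower (3.96%, with 5.66%). Strength by fold gave 46 higher at knockout 2 h (6.51%, with 8.22% over all). At knockout 4 h it gave 261 higher (36.9% of subtelomeric against 26.8% of all regions, where by p it was 13.4% against 15.2%). By genotype with 2000 places, 20 were higher in knockout (2.83%, with 3.18% over all) and 15 in parental (2.12%, with 1.57%). With 5000 places these were 1 (0.141%, with 0.467%) and 3 (0.424%, with 0.133%). By fold they were 5 (0.707%, with 1.98%) and 3 (0.424%, with 0.754%).

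The window counts below have no share over all windows beside them, so they show only how counts depend on the settings. Windows gained with 500 bp covered were 79 at parental 2 h, 90 at parental 4 h and 77 at knockout 4 h. Those lost were 91 at parental 4 h and 103 between the controls. With 15000 peaks, gained and lost were 53 and 56 at parental 2 h, 49 and 44 at parental 4 h, 39 and 37 at knockout 2 h, 60 and 155 at knockout 4 h, and 39 and 57 between the controls. With all deposited peaks, gained were 396, 361, 302 and 560 at parental 2 h, parental 4 h, knockout 4 h and between the controls, and lost were 235, 345, 93 and 105 at parental 4 h, knockout 2 h, knockout 4 h and between the controls. At a −log10 q of at least 5, gained and lost were 21 and 60 at parental 2 h, 26 and 46 at parental 4 h, 51 and 29 at knockout 2 h and 44 and 33 between the controls, with 2 gained at knockout 4 h. The other 40 alternative values moved by less than 1.5 times for a count, or by less than the counting interval.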
